A study of Mus musculus with 17 samples.

Results

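The genes described here encode the proteins of the mitochondrial ribosome. They were chosen by symbol: every gene whose symbol starts with Mrpl or Mrps followed by a number, and which has a probe set in the deposited table, was taken, 73 genes of the 15780 named genes in all. No measured value entered that rule, but the family was picked out with earlier results of these data known, so the main counts are set beside the share of all genes that gave the same result. The arrays measured F4/80hi cells that had been sorted from kidney tissue. The mice were NZB/W, a cross that develops an autoimmune nephritis resembling human lupus nephritis. F4/80, encoded by Adgre1, is a macrophage surface protein. All 3 groups shared the strain, the tissue and the sort. The prenephritic group held 6 arrays from mice aged 8 to 16 weeks. The nephritic group held 7 arrays from mice with proteinuria of 2 to 6 weeks' standing that had not reached terminal renal failure. The remission group held 4 arrays from mice taken 3 to 4 weeks after complete remission, which had been induced with 1 dose of cyclophosphamide, 6 doses of CTLA4Ig, and anti-CD154. The ages of the nephritic and remission mice are not given, so disease and age cannot be told apart, and neither can remission and the drugs that induced it. The labels do not say that the arrays of a group came from separate animals, so the p-values measure the spread between these arrays. In sorted bulk RNA, fewer cells of a type and less RNA per cell cannot be told apart.

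Mitochondria carry their own small genome, and the few proteins it encodes are core subunits of the respiratory chain and the ATP synthase. The mitochondrial ribosome makes those proteins at the inner membrane. Its RNA parts come from the mitochondrial genome, whereas every one of its proteins is encoded in the nucleus, made in the cytosol and imported. The large subunit (Mrpl genes) forms peptide bonds and holds the exit tunnel through which new proteins reach the membrane, and the small subunit (Mrps genes) binds the mRNA and decodes it. Mrps30 and Mrps18a are exceptions to the naming, since their proteins sit in the large subunit. Part of the family descends from bacterial ribosomal proteins and part was added in the mitochondrial lineage. GABP, an ETS factor, and NRF1 are known regulators of nuclear genes for mitochondrial proteins.

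Of the 73 genes, 71 were protein-coding in RefSeq (assembly GRCm38.p6) and 2, Mrpl27-ps and Mrpl23-ps1, were pseudogenes. By the place of their protein, 48 belonged to the large subunit and 23 to the small one. By ancestry, 42 had a bacterial homolog and 29 were mitochondria-specific. No filter on level was applied, and all 73 genes had a mean above 5.02, the lower quartile of all probe sets on the log2 scale. The RefSeq spans of 20 of the 73 genes overlapped another protein-coding gene, and the values of such genes are uncertain where a probe set could read both.

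The upstream sequences of the genes on which the results turn are shown first, for members that passed the test and for members that did not. They are the 250 bases before the annotated start in RefSeq's GRCm38.p6, read along the gene's strand. Capitals mark the motifs of GABP (CCGGAAG) and YY1 (AAGATGG) on either strand. Mrpl52 lies at chr14:54426659-54426908 on the plus strand, Mrpl45 at chr11:97315466-97315715 on the plus strand, and Mrpl11 at chr19:4962056-4962305 on the plus strand. Mrps30, at chr13:118387253-118387502 on the minus strand, is the member that went the opposite way and did not pass.
Mrpl52: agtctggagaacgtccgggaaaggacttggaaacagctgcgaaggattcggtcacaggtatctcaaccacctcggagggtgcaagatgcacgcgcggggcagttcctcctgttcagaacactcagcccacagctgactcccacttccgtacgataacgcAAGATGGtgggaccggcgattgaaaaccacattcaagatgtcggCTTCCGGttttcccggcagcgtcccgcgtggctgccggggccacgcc
Mrpl45: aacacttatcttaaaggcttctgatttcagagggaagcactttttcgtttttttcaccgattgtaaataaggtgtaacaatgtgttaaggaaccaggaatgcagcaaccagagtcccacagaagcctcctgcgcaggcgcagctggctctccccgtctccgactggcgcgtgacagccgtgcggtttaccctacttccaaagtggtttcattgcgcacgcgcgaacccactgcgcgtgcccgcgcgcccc
Mrpl11: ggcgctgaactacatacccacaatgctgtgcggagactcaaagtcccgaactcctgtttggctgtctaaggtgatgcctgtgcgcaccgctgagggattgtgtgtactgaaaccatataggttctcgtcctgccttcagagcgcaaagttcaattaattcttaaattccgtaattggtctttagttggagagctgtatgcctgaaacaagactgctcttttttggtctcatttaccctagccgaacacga
Mrps30: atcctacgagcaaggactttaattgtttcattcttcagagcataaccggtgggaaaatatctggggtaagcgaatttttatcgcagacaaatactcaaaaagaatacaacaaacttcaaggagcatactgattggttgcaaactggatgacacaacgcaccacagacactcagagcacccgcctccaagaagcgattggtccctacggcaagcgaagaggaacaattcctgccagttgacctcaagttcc
The window of Mrpl27 lies inside the span of Eme1, and that of Mrps27 partly inside another gene, so only the 27 bases around the GABP motif are given, at chr11:94653726-94653752 and chr13:99344728-99344754, both on the plus strand.
Mrpl27: tccgcaagacCCGGAAGtagatctatc
Mrps27: ggtaggaccaCTTCCGGcggaggcggg

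In Mrpl52 the YY1 motif began at position -91 from the start and the GABP motif at -47, and a further GABP motif lay at 3, past the start. The GABP motif began at -55 in Mrpl27 and at -48 in Mrps27, which also held a YY1 motif at 15, past the start. In Mrps6, whose window lies inside the span of Slc5a3 and is not shown, SP1 motifs began at -114, -109, -95 and -79. None of the 5 motifs searched lay in the windows of Mrpl45, Mrpl11 and Mrps30. Motifs were thus present in some and absent from others, both among the members that passed and among those that did not. The search covered 250 bases before and 50 bases after the start on both strands, for the 63 members that had a promoter in the RefSeq table, and some motifs can overlap each other. The GABP motif was present in 23 of the 63 (36.5%), against 15.4% of the 12585 tested genes with a promoter and 8.86% of all 32851 promoters. The YY1 motif was present in 13 (20.6%), against 7.62% of the tested genes and 6.34% of all promoters. The NRF1 motif GCATGCG was present in 7 (11.1%), against 5.94% and 3.58%. All 7 of these were among the 43 large-subunit genes searched, and 0 of 20 small-subunit genes held it. The SP1 motif GGGCGG was present in 29 (46%), against 59.5% and 35.7%, and the E-box CACGTG, which MYC binds, in 5 (7.94%), against 10.5% and 7.15%. By subunit, the SP1 motif was present in 15 of 43 large-subunit genes (34.9%) and 14 of 20 small-subunit genes (70%). The GABP motif was present in 34.9% and 40%, the YY1 motif in 18.6% and 25%, and the E-box in 9.3% and 5%. The differences between subunits, that of NRF1 included, were not tested. A match describes the letters in a window and is not evidence of binding. The lack of an exact match does not show that a site is absent.

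Arrays of 1 group correlated at 0.972 to 0.994 across probe sets. Adgre1 had means of 13.08, 13.24 and 13.23 on the log2 scale in prenephritic, nephritic and remission arrays. By limma it did not pass in nephritis (adjusted p = 0.212) or in remission against nephritis (adjusted p = 0.952). Transcripts of kidney tubule cells were present in every array. Their level is given as a tubule score, the mean over 41 tubule genes of the log2 value minus the gene's mean over 17 arrays. The score ran from -0.98 to 0.82 in prenephritic arrays, from -2.05 to 0.54 in nephritic arrays and from 0.02 to 1.35 in remission arrays. Nephritic replicate 3 and remission replicates 1 and 2 lay farthest from the median of all arrays. Between remission and nephritic arrays, 4 of 23 proximal (17.4%) and 3 of 18 distal tubule genes (16.7%) rose and 0 fell. Of all genes, 3.27% rose and 10% fell. Examples were the proximal enzyme Bhmt, by 2.05 ± 0.54 (adjusted p = 0.0196), and the distal calcium-binding protein Calb1, by 1.91 ± 0.51 (adjusted p = 0.0194). The mean level of the proximal list lay between 8.85 and 10.79 in prenephritic, 7.56 and 10.48 in nephritic and 9.85 and 11.17 in remission arrays, and in each group no distal marker had a mean under that quartile, while of the proximal markers only Slc7a13 did, in the nephritic and remission groups. Calls on members that change with the score in the fit are given below.

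The family changed little between the states of the kidney. In nephritic against prenephritic arrays, 5 of 73 genes rose and 0 fell at an adjusted p under 0.05, a share of 6.85% where 12.1% of all genes passed (6.74% higher and 5.32% lower). The 5 were Mrpl52, Mrpl27, Mrpl45, Mrpl11 and the pseudogene Mrpl27-ps. In remission against nephritic arrays, 1 gene, Mrpl45, fell and 0 rose, a share of 1.37% where 13.3% of all genes passed (3.27% higher and 10% lower). In remission against prenephritic arrays 0 of 73 passed, where 0.00634% of all genes did, which is 1 gene. At an unadjusted p under 0.05 by limma, 14 members were higher and 1 lower in nephritis (25.3% of all genes, 12.5% higher and 12.8% lower), 3 were higher and 7 lower in remission against nephritis (29.4% of all genes, 10.8% higher and 18.5% lower), and 9 were higher and 0 lower in remission against prenephritic arrays (18.7% of all genes, 6.38% higher). The values of all arrays of one group lay apart from all of the other for 0 members in nephritis, where they did for 4.68% of all genes (3.07% higher and 1.61% lower). In remission against nephritis they did so for 1 higher and 1 lower member, where 1.7% and 6.95% of all genes did. In remission against prenephritic arrays they did so for 2 higher members and 0 lower ones, where 2.32% of all genes did (0.393% higher and 1.93% lower). Each pair of these comparisons shares the arrays of 1 group, so their values are not independent.

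The count for nephritis was 5 with all arrays, 3 without prenephritic replicate 5 or without nephritic replicate 4, and 7 without prenephritic replicate 6. The count for remission against nephritis went from 1 to 5 without remission replicate 4, to 3 without nephritic replicate 2, and to 2 without prenephritic replicate 3, nephritic replicate 6 or nephritic replicate 7. The count for remission against prenephritic arrays went from 0 to 1 without prenephritic replicate 6. With the tubule score in the fit the counts were 9, 0 and 0, where 18.8%, 7.98% and 0% of all genes passed. The 4 members added in nephritis were Mrpl20 (0.42 ± 0.11, adjusted p = 0.0185), Mrpl54 (0.27 ± 0.08, adjusted p = 0.0262), Mrpl58 (0.31 ± 0.09, adjusted p = 0.0175) and Mrps28 (0.30 ± 0.09, adjusted p = 0.0354). Mrpl20, Mrpl58 and Mrps28 were named after their values were seen.

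Member differences were narrow, and the arrays were precise enough to bound them. Between nephritic and prenephritic arrays they ran from -0.16 (Mrps30) to 0.37 (Mrpl20, 0.37 ± 0.13, adjusted p = 0.0853), with a median of 0.08 against -0.02 for all genes. Of the 73 members, 69 (94.5%) had a 95% interval that lay wholly within 0.5 of zero on the log2 scale, compared with 70.5% of all genes. No member differed by more than 0.5, whereas 8.02% of all genes did. Between remission and nephritic arrays the differences ran from -0.36 (Mrpl45) to 0.65 (Mrps6), with a median of 0.02 against -0.03 for all genes (-0.06 against 0.02 with the tubule score in the fit), and 67 intervals (91.8%) lay within 0.5 of zero, compared with 63.3% of all genes. Between remission and prenephritic arrays they ran from -0.13 to 0.68 (Mrps6), with a median of 0.09 against -0.05, and 65 intervals (89%) lay within 0.5, compared with 66.5% of all genes. In nephritis 52 members (71.2%) were above zero, where 45.7% of all genes were, and the number ran from 47 to 56 over the alternatives. In remission against prenephritic arrays 56 (76.7%) were, where 36.6% of all genes were. Their median fell from 0.09 to 0.03 with the tubule score in the fit, with 46 above zero, to 0.03 without the 3 arrays farthest in that score, with 45, and to 0.05 without remission replicate 2. Comparing remission with nephritis, 42 (57.5%) were above zero, where 44.2% of all genes were, and this lean turned with the arrays and the fit. It was 21 (28.8%, all genes 53.4%) with the tubule score in the fit and 23 (31.5%, all genes 52.4%) without the 3 arrays farthest in the score. It was 33 without remission replicate 2 and 36 without nephritic replicate 6, with medians of -0.01 and -0.00011. The members also varied less within a group, with a median standard deviation of 0.143 against 0.181 for all genes. All 73 members passed the filter on low values, as 11891 of the 15780 genes did, so these intervals and deviations are set against genes of unlike level. The part of level in the narrower values of the members was not tested.

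**Figure D1:**
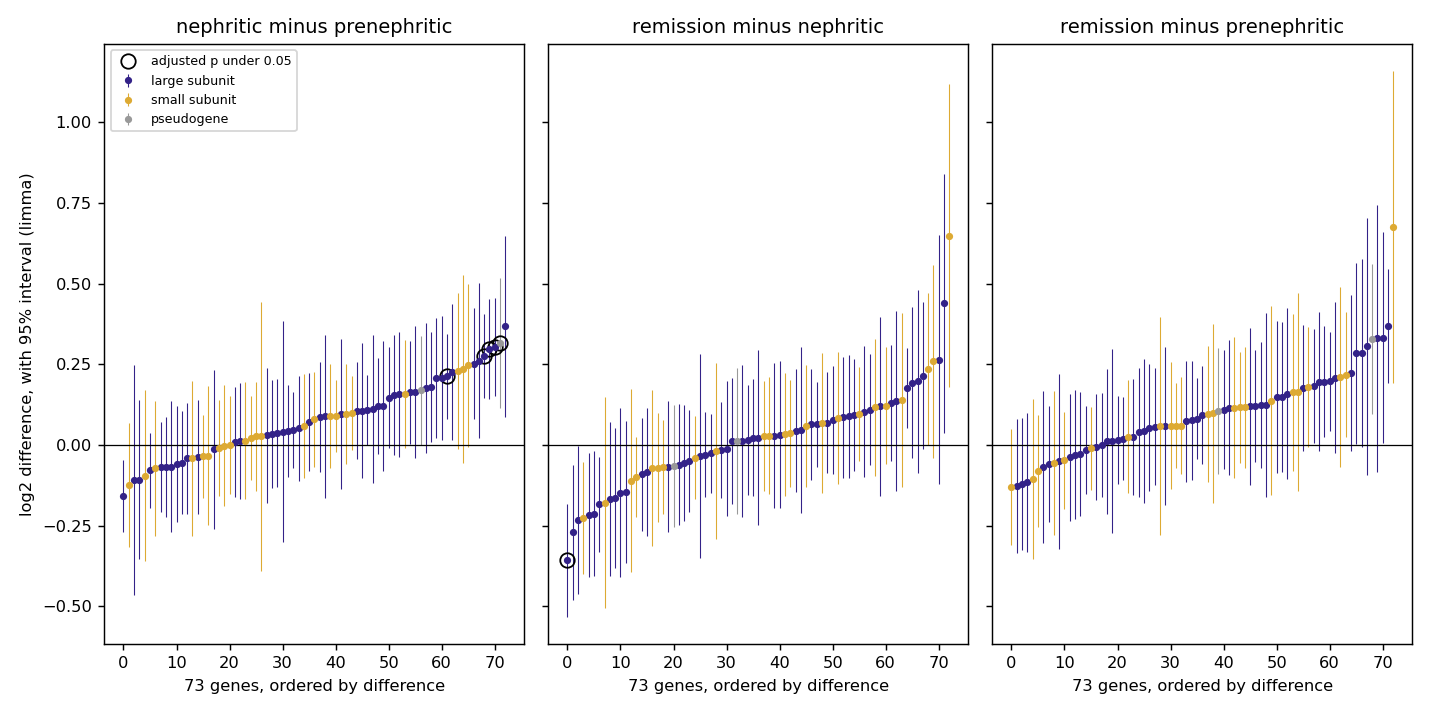
Log2 difference of each of the 73 genes (points) with its 95% interval (lines) in the 3 comparisons, ordered by size from left to right; colours give the subunit and circles an adjusted p under 0.05 by limma. The points lie between -0.16 and 0.37 in nephritis, where 5 are circled, and Mrps6 is the point farthest to the right in both remission panels.

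The family's level ranged more widely over the arrays of each group than over the 3 group means. Means of several arrays vary less than single arrays, so the spread between groups was not tested against that within them. The family's mean centred value ran from -0.18 (replicate 3) to 0.08 (replicate 6) in prenephritic arrays, with a mean of -0.06 ± 0.11 (SD, n = 6). It ran from -0.06 (replicate 6) to 0.14 (replicate 7) in nephritic arrays, with a mean of 0.02 ± 0.07 (SD, n = 7). It ran from -0.07 (replicate 4) to 0.15 (replicate 2) in remission arrays, with a mean of 0.04 ± 0.09 (SD, n = 4). The 3 ranges overlapped. Within the prenephritic group, 62 of 73 members were above their own group mean in replicate 6 and 58 in replicate 2, but 13 in replicate 3. In the nephritic group the counts were 64 in replicate 7 and 17 in replicate 6, and in the remission group 57 in replicate 2 and 23 in replicate 4. Most members thus sat high or low together in an array, in both subunits: in prenephritic replicate 3 the large-subunit mean was -0.18 and the small-subunit mean -0.19, and in remission replicate 2 they were 0.14 and 0.18. The tubule score was lowest of the prenephritic arrays in replicate 3 (-0.98) and highest in replicate 6 (0.82), and highest of the remission arrays in replicate 2 (1.35). Nephritic arrays did not follow the same order: the family's high array, replicate 7, had a score of -0.44, and the array with the lowest score, replicate 3 at -2.05, had a family mean of -0.04. The median of all probe sets also differed between arrays. In prenephritic arrays it was lowest in replicate 3 (7.52) and highest in replicate 6 (7.68), as the family's mean was. In remission arrays it was lowest in replicate 4 (7.55) and highest in replicate 2 (7.66), again as the family's mean was. In nephritic arrays it was lowest in replicate 3 (7.49) and highest in replicate 2 (7.67), where the family's mean was not. The parts of tubule RNA and of the array-wide level in the family's level were not tested.

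**Figure D2:**
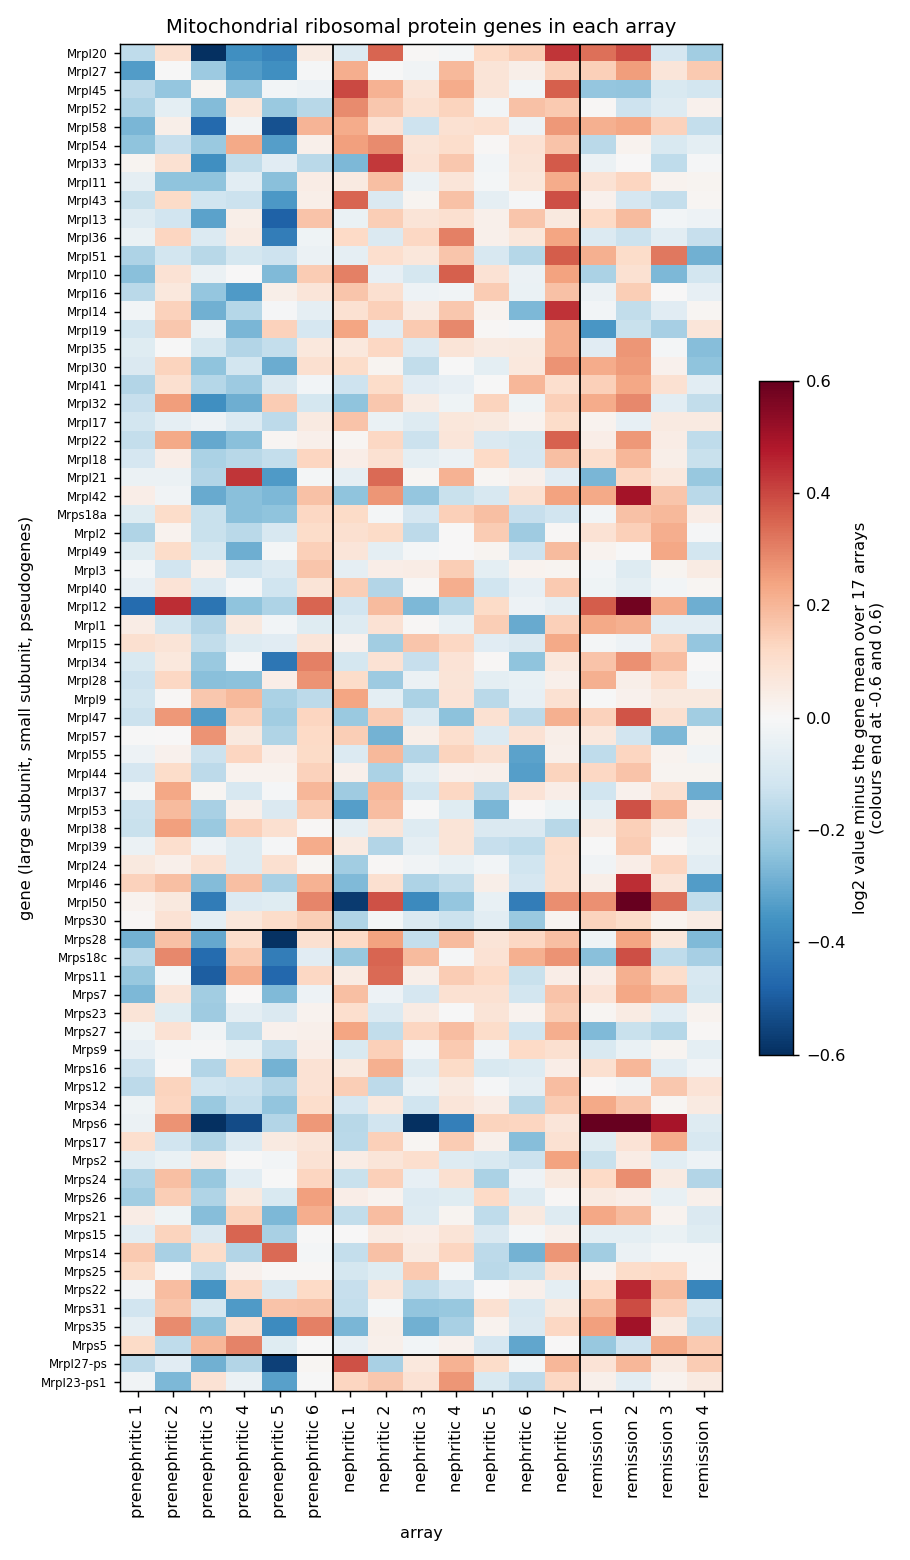
Log2 value minus the gene's mean over 17 arrays for each of the 73 genes (rows, by subunit and, within it, by the difference in nephritis) in each array (columns); colours end at -0.6 and 0.6. Whole columns are pale blue or pale red, as in prenephritic replicates 3 and 5 and in nephritic replicate 7 and remission replicate 2, and the row of Mrps6 has the strongest colours of the small subunit.

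The 4 protein-coding genes that rose in nephritis belonged to the large subunit. Of its 48 genes 4 rose and 0 fell (8.33%, near the 6.74% of all genes that rose), with a median difference of 0.09, and of the 23 small-subunit genes 0 passed, with a median of 0.03. With the tubule score in the fit the small-subunit gene Mrps28 passed too. At an unadjusted p under 0.05 by limma the counts were 12 higher and 1 lower in the large subunit and 0 in the small one, where 12.5% of all genes were higher and 12.8% lower. The difference between the subunits was not tested. By ancestry, the 4 were 2 of 42 genes with a bacterial homolog and 2 of 29 mitochondria-specific ones. In nephritis 35 of those 42 (83.3%) were above zero, with a median of 0.09, and 15 of those 29 (51.7%), with a median of 0.04. Of all genes, 45.7% were above zero. The difference between these classes was not tested. The 4 genes that rose came from different regions of the subunit. Mrpl11 was 1 of 5 genes of the stalk, which recruits translation factors, Mrpl27 was 1 of 8 of the central protuberance, and Mrpl45 was 1 of 5 of the exit tunnel.

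Mrpl52 (Entrez 68836) encodes a mitochondria-specific protein of the large subunit. Its log2 values ran from 11.57 through a median of 11.66 to 11.90 in prenephritic arrays and from 11.81 through 11.99 to 12.11 in nephritic arrays, and were 11.84, 11.71, 11.75 and 11.86 in the 4 remission arrays. Prenephritic and nephritic arrays overlapped through 1 high prenephritic and 1 low nephritic array. The gene rose in nephritis by 0.28 ± 0.06 (1.21-fold, adjusted p = 0.00677), and passed in all 28 alternatives run. In remission against nephritis it differed by -0.18 ± 0.07 and did not pass (adjusted p = 0.0876).

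Mrpl27 (Entrez 94064), the homolog of a bacterial protein that reaches towards the peptidyl transferase centre, lay in or above its nephritic range in remission. The values ran from 10.05 through 10.14 to 10.41 in prenephritic arrays and from 10.40 through 10.49 to 10.64 in nephritic arrays, and were 10.56, 10.67, 10.49 and 10.57 in remission. Nephritic arrays overlapped the prenephritic ones only at their low end, and all 4 remission arrays were above every prenephritic one. The rise in nephritis was 0.30 ± 0.07 (1.24-fold, adjusted p = 0.0106) and held in all 28 alternatives. Remission differed from nephritis by 0.06 ± 0.08 (adjusted p = 0.665) and from prenephritic arrays by 0.37 ± 0.08, which did not pass (adjusted p = 0.126). Without prenephritic replicate 6 that last difference passed, at 0.41 (adjusted p = 0.0273), and with array weights it was 0.37 (adjusted p = 0.0324). Mrpl27 and Mrpl27-ps were the 2 members, and Mrpl27 the one protein-coding member, whose remission and prenephritic arrays did not overlap. Of all genes, 0.393% lay higher in that way.

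Mrpl27-ps (Entrez 622268) is annotated as a pseudogene of Mrpl27, so its probe set may read the parent gene's RNA, and the 2 may not be separate measurements. It ran from 9.16 through 9.55 to 9.73 in prenephritic arrays and from 9.52 through 9.82 to 10.10 in nephritic arrays, and was 9.80, 9.91, 9.77 and 9.87 in remission. It rose in nephritis by 0.32 ± 0.09 (adjusted p = 0.0389). It passed in 16 of 28 alternatives, with an adjusted p between 0.0149 and 0.0964. It did not pass without prenephritic replicate 1, 3, 4 or 5 or without nephritic replicate 1, 4, 5 or 7, with differences of 0.25 to 0.33 and adjusted p of 0.0561 to 0.0889. Eme1, a DNA repair endonuclease subunit whose span overlaps that of Mrpl27, was named after its values were seen. It rose in nephritis by 0.41 ± 0.10 (adjusted p = 0.0136) and fell in remission by 0.87 on the log2 scale (standard error 0.11, adjusted p = 0.000218), where Mrpl27 stayed high.

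Mrpl45 (Entrez 67036) was the member that passed in both directions. Its protein lines the end of the exit tunnel and anchors the ribosome to the inner membrane. The values ran from 8.19 through 8.33 to 8.44 in prenephritic arrays and from 8.40 through 8.63 to 8.82 in nephritic arrays, and were 8.19, 8.18, 8.33 and 8.31 in remission. All 4 remission arrays were below every nephritic array, as 6.95% of all genes were, and within or just below the prenephritic range. The gene rose in nephritis by 0.30 ± 0.07 (1.23-fold, adjusted p = 0.0133) and differed by -0.36 ± 0.08 in remission against nephritis (0.781-fold, adjusted p = 0.00936). Remission and prenephritic arrays differed by -0.06 ± 0.09 (adjusted p = 0.724, 95% interval within 0.5 of zero). The fall in remission held without each single array. It did not pass with the tubule score in the fit, at -0.33 (adjusted p = 0.0535), or without the 3 arrays farthest in that score, at -0.31 (adjusted p = 0.228). The other 4 exit tunnel genes, Mrpl22, Mrpl24, Mrpl39 and Mrpl44, did not pass in either comparison, with differences from -0.08 to 0.11 in nephritis.

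Mrpl11 (Entrez 66419) encodes a protein at the base of the stalk. It ran from 11.36 through 11.46 to 11.65 in prenephritic arrays and from 11.57 through 11.68 to 11.83 in nephritic arrays, and was 11.69, 11.74, 11.63 and 11.62 in remission. In the prenephritic group 3 arrays lay between 11.36 and 11.37 and 3 between 11.55 and 11.65. The gene rose in nephritis by 0.21 ± 0.06 (1.16-fold, adjusted p = 0.0337), and remission differed from nephritis by -0.02 ± 0.07. It passed in 16 of 28 alternatives, with differences from 0.16 to 0.25 and an adjusted p between 0.013 and 0.112. It did not pass without prenephritic replicate 2, 3 or 5 or without nephritic replicate 1, 2, 4, 6 or 7, with adjusted p of 0.0511 to 0.0817. Of the other stalk genes, Mrpl54 (Entrez 66047) lay just outside the threshold, at 0.25 ± 0.08 in nephritis (adjusted p = 0.0544) and -0.21 ± 0.09 in remission against nephritis (adjusted p = 0.132). Mrpl54 passed in nephritis in 6 of 28 alternatives. These were the filter on low values (adjusted p = 0.0486), repeated quantile normalization (adjusted p = 0.039), array weights (adjusted p = 0.0397), the tubule score in the fit (adjusted p = 0.0262), and leaving out prenephritic replicate 4 (0.32, adjusted p = 0.0067) or 6 (0.28, adjusted p = 0.0434). Mrpl12, which also binds the mitochondrial RNA polymerase, differed by 0.04 ± 0.16 and 0.26 ± 0.18, Mrpl10 by 0.16 ± 0.10 and -0.23 ± 0.11, and Mrpl53 by -0.07 ± 0.10 and 0.22 ± 0.11. The members nearest the threshold were Mrpl11 and Mrpl27-ps inside it and Mrpl54 and Mrps30 (adjusted p = 0.0609) outside it.

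**Figure D3:**
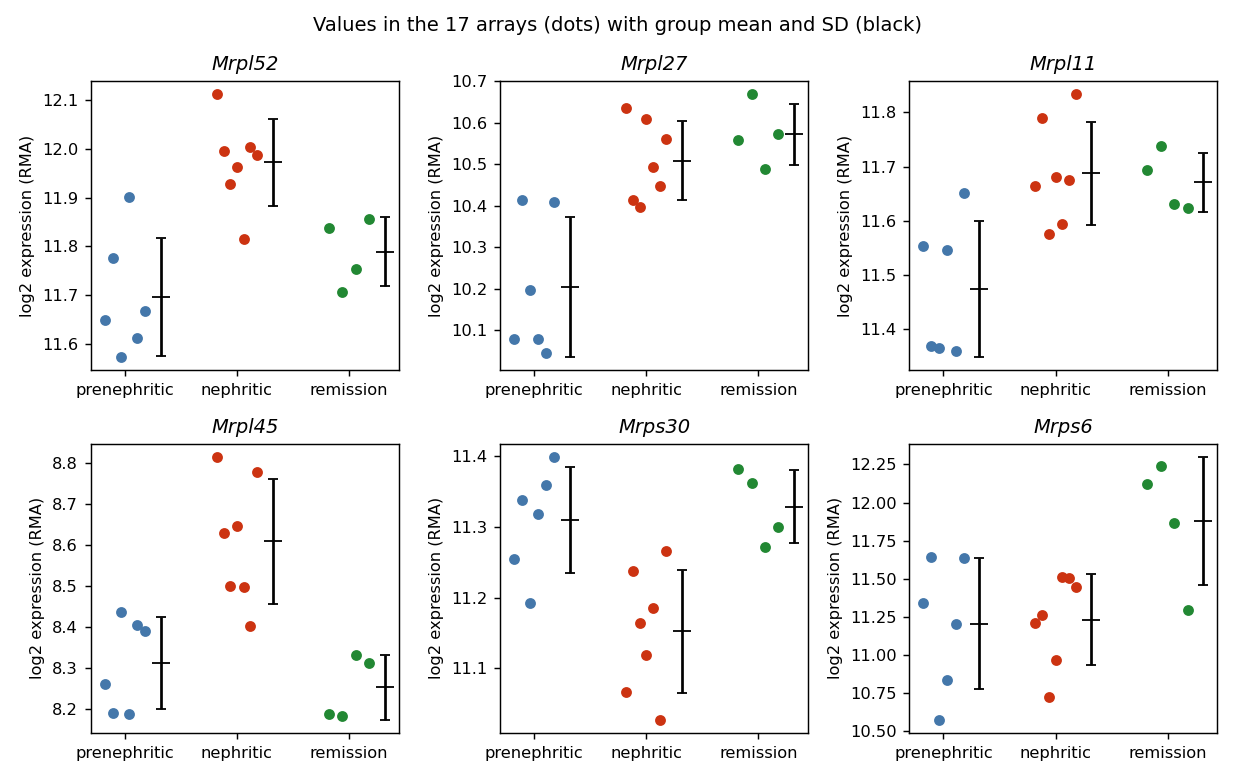
Log2 expression of 6 members in each array (dots) with the group mean and SD (black), each gene on its own axis, which does not start at zero. Nephritic arrays sit above most prenephritic ones for Mrpl52, Mrpl27, Mrpl11 and Mrpl45; remission arrays return below all nephritic ones for Mrpl45 and stay high for Mrpl27.

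Mrps30 (Entrez 59054), whose protein sits in the large subunit despite its name, had the opposite pattern to Mrpl45 and did not pass. It ran from 11.19 through 11.33 to 11.40 in prenephritic arrays and from 11.03 through 11.16 to 11.27 in nephritic arrays, and was 11.38, 11.36, 11.27 and 11.30 in remission. Every remission array was above every nephritic one, as 1.7% of all genes were. The differences were -0.16 ± 0.05 in nephritis and 0.18 ± 0.06 in remission against nephritis (adjusted p = 0.0573). They ranged from -0.20 to -0.13 and from 0.14 to 0.21 over the 28 alternatives, and passed in 3 and 4 of them. The single arrays without which it passed were prenephritic replicate 3 (adjusted p = 0.045) and nephritic replicate 7 (adjusted p = 0.0476) in nephritis, and nephritic replicates 2 (adjusted p = 0.0464) and 7 (adjusted p = 0.0473) in remission against nephritis.

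In the small subunit no gene passed in any comparison in the main fit, though some passed in alternatives. Mrps28 differed by 0.25 ± 0.12 in nephritis (adjusted p = 0.207) and passed there with the tubule score in the fit. Mrps6 (Entrez 121022), the homolog of a bacterial small-subunit protein, had the largest differences of the family in remission. It ran from 10.57 through 11.27 to 11.65 in prenephritic arrays and from 10.72 through 11.26 to 11.51 in nephritic arrays, and was 12.12, 12.24, 11.87 and 11.29 in remission. Remission replicates 1, 2 and 3 were above all other arrays, and replicate 4 lay inside the range of the other groups. The difference was 0.65 ± 0.22 in remission against nephritis (1.57-fold, adjusted p = 0.0614, 95% interval 0.18 to 1.12) and 0.68 ± 0.23 in remission against prenephritic arrays (adjusted p = 0.196). In remission against nephritis it was 0.84 without remission replicate 4 and passed (adjusted p = 0.017). It also passed without prenephritic replicate 3, at 0.65 (adjusted p = 0.043), and with array weights, at 0.70 (adjusted p = 0.0177). With each array centred on its median it was 0.64 and passed (adjusted p = 0.0421).

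The 3 arrays with the highest Mrps6 values were among the 4 with the highest tubule scores. Remission replicates 1, 2, 3 and 4 had scores of 1.03, 1.35, 0.67 and 0.02. Prenephritic replicate 3 and nephritic replicate 3, which had the lowest Mrps6 value of their groups, had the lowest scores of theirs. With the tubule score in the fit the difference was 0.19 (adjusted p = 0.569), and without the 3 arrays farthest in the score it was 0.27 (adjusted p = 0.772). The RefSeq span of Mrps6 overlaps that of Slc5a3, the sodium/myo-inositol cotransporter that kidney cells use to take up an osmolyte, which was named after its values were seen. Slc5a3 had means of 5.91 ± 0.55 (SD, n = 6) in prenephritic, 5.52 ± 0.49 (n = 7) in nephritic and 6.42 ± 0.82 (n = 4) in remission arrays. It was 6.65, 7.12, 6.68 and 5.23 in remission replicates 1 to 4, so that replicate 4 was the low one for both genes. Its difference of 0.90 ± 0.35 in remission against nephritis did not pass (adjusted p = 0.0933). Whether the Mrps6 probe set also reads RNA of Slc5a3 or of tubule cells was not tested.

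**Figure D4:**
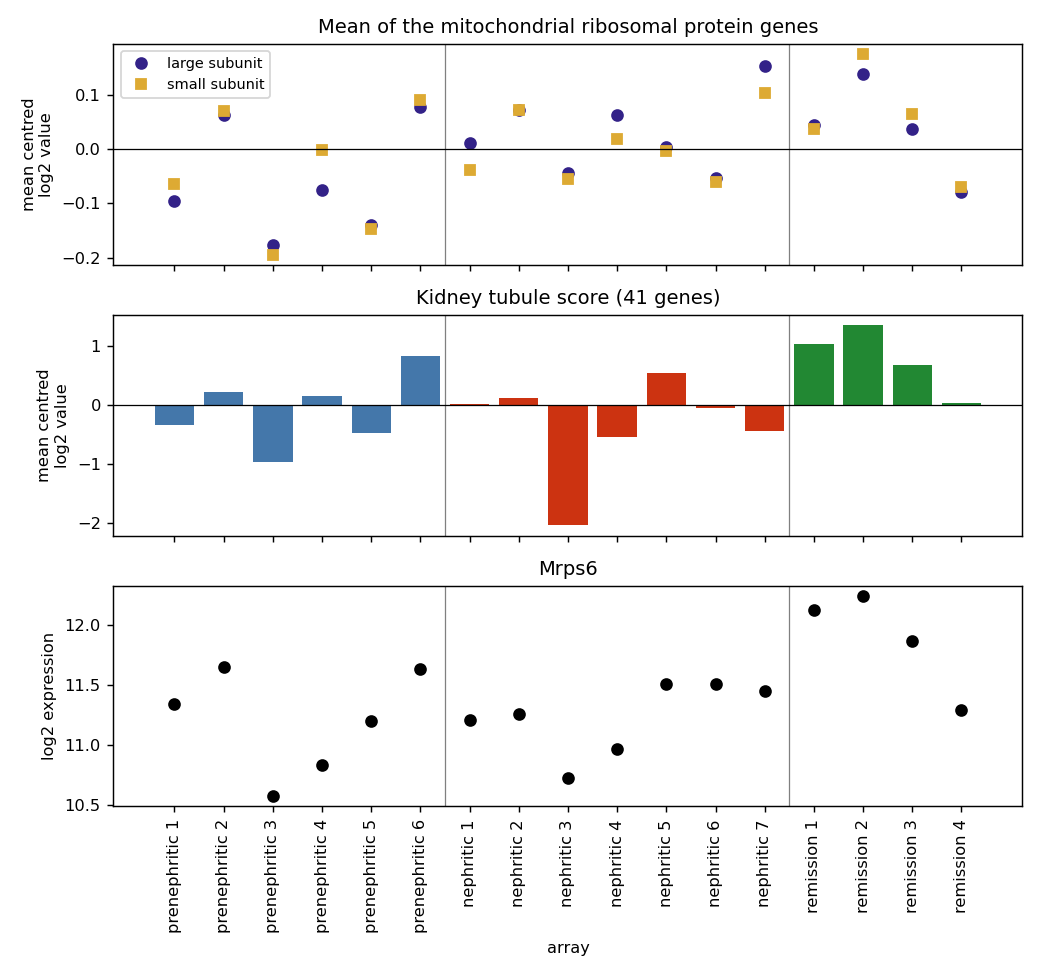
Top, mean centred log2 value of the large-subunit (circles) and small-subunit (squares) genes in each array; middle, tubule score (mean centred log2 value of 41 tubule genes, bars from zero); bottom, log2 expression of Mrps6, on an axis that does not start at zero. Both subunits move together from array to array, and remission replicates 1, 2 and 3 have scores of 0.67 to 1.35 and the 3 highest Mrps6 values.

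Mrps27 (Entrez 218506), a small-subunit protein with helical repeats, ran from 8.19 through 8.34 to 8.42 in prenephritic and from 8.19 through 8.46 to 8.57 in nephritic arrays, and was 8.07, 8.20, 8.17 and 8.35 in remission. It differed by 0.10 ± 0.07 in nephritis (adjusted p = 0.46) and by -0.23 ± 0.08 in remission against nephritis (adjusted p = 0.0764). The latter passed without nephritic replicate 2 (-0.27, adjusted p = 0.0311), nephritic replicate 6 (-0.26, adjusted p = 0.0423) or remission replicate 4 (-0.28, adjusted p = 0.0412). The groups overlapped. The 23 small-subunit genes ran from -0.12 to 0.25 in nephritis and from -0.23 to 0.65 in remission against nephritis. Among those that moved little, Mrps12, Mrps16, Mrps17, Mrps21, Mrps24 and Mrps26 differed by no more than 0.12 in either comparison. They were not named by the rule.

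The machinery that works with the ribosome gave few calls, from lists chosen with earlier results of these data known. Its counts stand beside the 12.1% of all genes that passed in nephritis and the 13.3% in remission against nephritis. Of the mitoribosomal proteins with other symbols, 3 of 6 were measured, Dap3, Chchd1 and Gadd45gip1, and 0 passed in the first 2 comparisons, with differences of -0.07, 0.01 and 0.09 in nephritis. Of 12 measured translation factors 0 passed. The largest shift was that of Gfm2, which recycles ribosomes, at -0.35 ± 0.13 in nephritis (adjusted p = 0.0782). Of 17 measured mitochondrial tRNA synthetases 0 passed, with medians of -0.09 in nephritis and 0.01 in remission against nephritis.

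Among 23 measured genes of ribosome assembly, 1 rose and 1 fell in nephritis (8.7%, all genes 12.1%), and 2 rose and 2 fell in remission against nephritis (17.4%, all genes 13.3%). Mpv17l2, an inner membrane protein needed for assembly, had means of 10.27, 10.59 and 10.34 in prenephritic, nephritic and remission arrays. It rose in nephritis by 0.32 ± 0.06 (adjusted p = 0.0015) and differed by -0.25 ± 0.06 in remission (adjusted p = 0.0152). Fastkd2, an RNA-binding protein of the mitochondrial RNA granule, went the other way, by -0.27 ± 0.08 (adjusted p = 0.0476) and then 0.33 ± 0.10 (adjusted p = 0.0306). The helicase Ddx28 fell in remission against nephritis by 0.42 on the log2 scale (adjusted p = 0.015), and the rRNA methyltransferase Mettl15 rose by 0.35 ± 0.10 (adjusted p = 0.0345). The last gene was named after its values were seen.

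Of 8 measured genes for transcription and replication of mitochondrial DNA, 1 fell in nephritis, the replicative helicase Twnk, by 0.24 on the log2 scale (adjusted p = 0.0256), and 0 passed in remission against nephritis. Twnk overlaps the member Mrpl43, which differed by 0.21 ± 0.09 in nephritis (adjusted p = 0.159), the opposite sign. Of 11 regulators of mitochondrial biogenesis, 1 fell in nephritis, Myc, by 0.56 on the log2 scale (adjusted p = 0.0283), and 1 rose in remission against nephritis, Ppargc1a, the coactivator PGC-1alpha, by 1.64 ± 0.49 (adjusted p = 0.0371). Ppargc1a is also expressed in kidney tubules, and remission arrays also had the higher tubule scores. Its part in this rise was not tested. Of 21 import genes, 3 rose and 1 fell in nephritis (19%, all genes 12.1%), and 2 rose and 2 fell in remission against nephritis (19%, all genes 13.3%). Tomm40l, a form of the outer membrane channel, rose in nephritis by 0.31 ± 0.06 (adjusted p = 0.00293), the intermembrane chaperone Timm10b by 0.35 ± 0.11 (adjusted p = 0.0379) and the import receptor Tomm70a by 0.20 ± 0.06 (adjusted p = 0.0449). The gene that fell in nephritis was Timm21 (-0.27 ± 0.07, adjusted p = 0.0175). Timm10b and Tomm70a were the 2 that fell in remission, and Timm21 and Timm29 the 2 that rose. Timm21 and Timm29 were named after their values were seen. In nephritis, 3 of 17 tRNA synthetases (17.6%), 4 of 23 assembly genes (17.4%) and 4 of 12 translation factors (33.3%) were above zero. So were 0 of 8 mitochondrial DNA genes, 3 of 11 regulators and 13 of 21 import genes (61.9%), where 45.7% of all genes were. In remission against nephritis all 8 mitochondrial DNA genes were, and 27.3% to 58.8% of each other list named here, where 44.2% of all genes were. These leans were not tested.

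The products of the mitochondrial ribosome join the nuclear-encoded subunits of oxidative phosphorylation. Of 67 such genes 1 rose in nephritis, Cox6a2 (0.32 ± 0.10, adjusted p = 0.0371), a share of 1.49% where 12.1% of all genes passed. In remission against nephritis 1 rose, Cox7a1 (1.07 ± 0.28, adjusted p = 0.0178), again 1.49%, where 13.3% of all genes passed. Comparing remission with prenephritic arrays, 0 passed, and 23 of the 67 were higher at an unadjusted p under 0.05 by limma, where 6.38% of all genes were. The median difference was 0.23, where that of the ribosomal family was 0.09. Their mean centred value was 0.16 ± 0.19 (SD, n = 4) in remission and -0.08 ± 0.22 (n = 6) in prenephritic arrays. It was lowest in prenephritic replicate 3 and highest in remission replicate 2, the arrays in which the ribosomal family was also lowest and highest. Their tubule scores were -0.98, the lowest of the prenephritic group, and 1.35, the highest of all arrays. Nephritic replicate 3, with the lowest score of all (-2.05), had a mean centred value of -0.19 for these subunits. The part of tubule RNA in the subunits' higher values in remission was not tested. Of 23 measured cytosolic ribosomal proteins, 1 fell in nephritis, Rps4l (-0.79 ± 0.24, adjusted p = 0.0385), and 0 passed in remission against nephritis, with medians of -0.04 and 0.00.

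Cell cycle genes, in contrast, changed broadly. Of 11 measured, 7 rose in nephritis (63.6%) with a median difference of 0.67, and 10 fell in remission against nephritis (90.9%) with a median of -1.05. Of all genes, 6.74% rose and 5.32% fell in nephritis, and 3.27% rose and 10% fell in remission against nephritis. Markers of other blood cells also moved, in short lists to be set beside the same shares. In nephritis 4 of 5 B and plasma cell genes, 2 of 5 T cell genes and 2 of 11 macrophage genes rose, and in remission against nephritis 2, 3 and 2 of them fell. The mean level of the B and plasma cell list ran from 6.19 to 8.19 in prenephritic, from 7.83 to 9.22 in nephritic and from 7.08 to 7.31 in remission arrays, with Ms4a1 and Pou2af1 below the lower quartile in the prenephritic and remission groups. The mean level of the T cell list ran from 5.14 to 5.75, from 5.55 to 6.29 and from 5.06 to 5.21, with Cd3g below it in the prenephritic and remission groups and Cd3d in the remission group. Of the other lists, 1 of 7 endothelial, 0 of 7 fibroblast, 0 of 6 neutrophil and 0 of 4 podocyte genes rose in nephritis, 1 of 5 NK cell genes fell, and 1 of 3 dendritic cell genes rose and 1 fell. Between nephritic and remission arrays 2 of 5 NK cell, 2 of 3 dendritic cell and 1 of 7 fibroblast genes fell, 1 of 7 endothelial genes rose and 1 fell, and 0 neutrophil and 0 podocyte genes passed. The part of these cells in the rise of Mrpl52, Mrpl27, Mrpl45 and Mrpl11 in nephritis, and in the fall of Mrpl45 in remission, was not tested.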

How the data were processed

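Biotin-labelled RNA of 17 sorted samples was measured on 1 Affymetrix array each. The deposited values are log2 expression that the authors computed with RMA, per the submitters' processing notes. Version, probe definition and genome build: not given in the sources used here. RMA brings the probe values of all arrays to a common distribution, so total RNA per cell cannot be read, and small differences are compressed. The deposited probe-set values still differed in level, with array medians from 7.49 to 7.68. With quantile normalization repeated the members' median went from 0.08 to 0.04 in nephritis. In remission against nephritis it went from 0.02 to 0.05. Of 16539 probe sets 64 were controls. GEO's annotation gave 1 symbol to 15780, several to 0 and none to 695. All 73 members were found in RefSeq's gene table (GRCm38.p6) by Entrez identifier. Group and replicate number came from the sample titles.

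A model of 3 group means over the 17 arrays was fitted with limma 3.58.1 in R 4.3.3 (14 residual degrees of freedom). The moderated tests were two-sided, with Benjamini-Hochberg adjustment over 15780 genes and a threshold of 0.05. Differences are log2 ± standard error, and levels are mean ± SD. The script was tested on simulated data. The number of arrays limits the precision.

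The members, gene lists, alternatives and rules were chosen with earlier results of these data known. Named members were, per comparison, up to 8 called in each direction or, under 3 calls, the 4 with the smallest p, besides the member with the smallest p of each region and the 2 nearest the threshold on each side. Up to 3 genes with the smallest p stood for each mitochondrial list. Alternatives were a filter on low values, repeated quantile normalization, median centring, another variance prior, array weights, only the groups compared, a replicate block, all probe sets, the tubule score as covariate, and arrays left out. No set test was run.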

Additional observations from a re-analysis of the deposited data

Results flagged for a closer look

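Nephritic replicate 3 had a tubule score of -2.05, where the median of the 7 nephritic arrays was -0.05. Its gap to the nearest array was 0.582 of the group's range, above Dixon's 95% critical value for 7 arrays. It was the only value so marked among 33 groups of values tested, a number in which chance marks about 1 in 20. The family's mean in that array was -0.04, inside the range of the other nephritic arrays. Without it, the number of members called was 5 in nephritis and 1 in remission against nephritis, as with all arrays.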

How the results depend on the processing

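No named member that passed changed direction over the alternatives run, but in remission against nephritis the members' median turned from 0.02 to -0.06 with the tubule score in the fit and to -0.04 without the 3 arrays farthest in it. The number of members called in nephritis was 5. It was 3 with only the groups compared, 3 with the replicate block, 9 with the tubule score in the fit, and 3 with nephritic replicate 6 and prenephritic replicate 5 both left out. In the other settings it was 4 to 6, and it ran from 3 to 7 when each array was left out in turn. The number called in remission against nephritis was 1. It was 2 with quantile normalization repeated, 2 with arrays centred on their medians, 6 with array weights, 4 with the replicate block, 0 with the tubule score in the fit, 0 without the 3 arrays farthest in that score, and 2 with nephritic replicate 6 and prenephritic replicate 5 both left out, and it ran from 1 to 5 with single arrays left out. In remission against prenephritic arrays 0 were called. It was 1 with array weights (Mrpl27), 1 with the replicate block (Mrps6), and 0 to 1 with single arrays left out. The cause of these shifts was not tested. The labels do not say whether the replicate numbers pair the arrays, and the correlations of their deviations cannot decide it. Over 14 pairs with the same number these ran from -0.261 to 0.797, with a median of 0.120 against 0.0055 for pairs with different numbers. Of the 14 correlations 8 were over 0.1, and 3 of 16 arrays were closest to their own number. With the replicate block Mrpl45 had an adjusted p of 0.07 in nephritis, and Mrps6 differed by 0.82 in remission against nephritis (adjusted p = 0.00566). Of all genes, 1904, 2100 and 1 passed in the 3 comparisons; with the tubule score in the fit 2960, 1260 and 0 did, with array weights 1969, 3624 and 358, and with the replicate block 1700, 2887 and 478. In remission against nephritis 281 passed without the 3 arrays farthest in tubule score, and in nephritis 1236 with nephritic replicate 6 and prenephritic replicate 5 left out. In remission against prenephritic arrays 199 passed without prenephritic replicate 6 and 17 without remission replicate 4.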
